A study of Mus musculus with 4 samples.

Results

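Gene expression was compared between Batf2-/- (KO) and Batf2+/+ (WT) mouse macrophages before lipopolysaccharide (LPS) was added, with 1 RNA-seq library for each. The genes described are the 10854 of 24078 that had an FPKM of at least 1 in either of these libraries. FPKM counts reads per length of transcript, scaled to the size of the library. Both cultures were bone marrow cells of C57BL/6 mice that grew for 6 days in 10 ng/ml GM-CSF, of which the adherent cells were used. Per the labels, each culture then had interferon-gamma (IFN-γ) at 10 ng/ml for 4 h, and LPS at 100 ng/ml was given for 0 h in the pair compared here and for 3 h in a further KO and WT pair. The series holds 4 libraries in all, 1 per genotype and time. The labels do not name the number of animals, their age or the part of Batf2 that was deleted.

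Batf2 is a basic leucine zipper transcription factor of the BATF family. These factors pair with JUN proteins and, through a contact on the zipper, can join interferon regulatory factors at composite DNA sites. Batf2 itself is known as a gene that macrophages switch on under IFN-γ and LPS, and cultures in GM-CSF hold macrophages together with cells that resemble dendritic cells and with leftover granulocyte precursors. The comparison therefore asks what the genotypes looked like before LPS was added, at a time when Batf2 itself was low.

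Differences are given as KO minus WT of log2(FPKM + 1), so that changes of genes with low values come out too small. A gene is called higher or lower when this difference was at least 1, which is 2-fold, in that direction and the deposited 95% intervals of the libraries did not overlap. The intervals printed beside FPKM are the deposited ones moved onto the FPKM. They cover counting and read assignment in 1 library. With 1 library per group no test was possible, no p-value or standard error is given, and a call says nothing about how far 2 WT cultures would differ.

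Of the 10854 genes, 183 (1.69%) were called in either direction, 143 (1.32%) as higher and 40 (0.369%) as lower in KO. The differences of all tested genes had quartiles of -0.11 and 0.11 and a median of -0.0003, and 94.5% of the genes were within 1.5-fold. The calls came from every level of expression: 56 higher and 9 lower genes were among the 2936 with 1 to 5 FPKM, and 15 higher and 2 lower among the 733 at 100 FPKM or more. The deposited intervals spanned about 22.4% of the value to each side for genes of 1 to 2 FPKM in WT and 21.2% in KO, and 3.68% and 3.58% for genes of 100 to 200 FPKM. Read depth, as far as the interval widths show it, was 1.11 times as high in KO. Calls for 26 genes, 14 higher and 12 lower, rest on a listed value of 0 in 1 library, which may be a failed estimate. Next to the rule, Zfp970, Ets1, Lce1g and Fkbp10 were just inside (from 1 to 1.01), and Vsig8, Septin1, Loxl2, Prss23, Plac8 and Cnn1 just outside (from 0.99 up to 1).

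**Figure D1:**
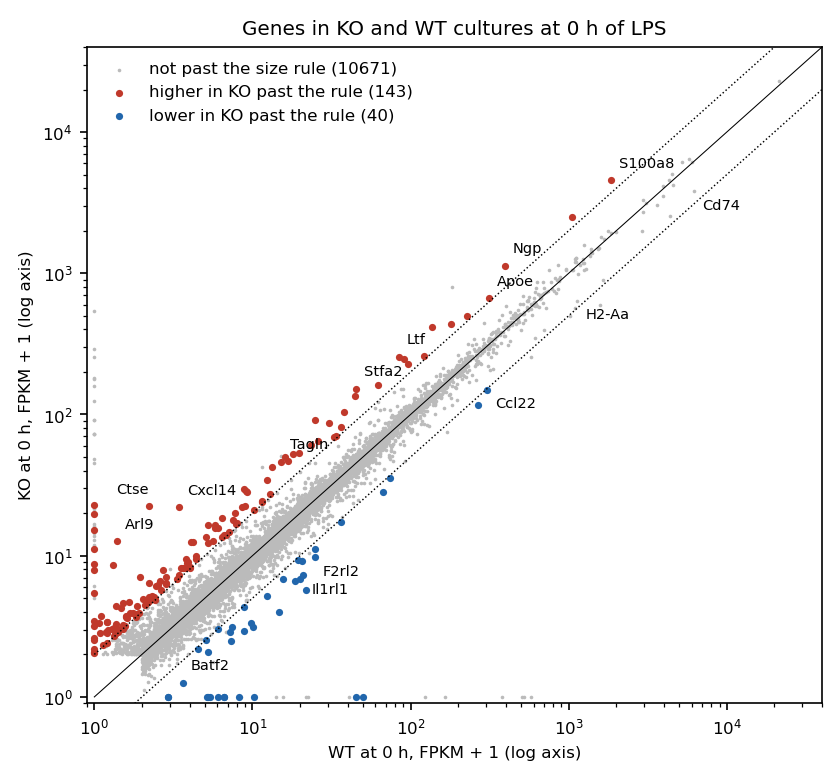
Expression of the 10854 genes in WT (horizontal axis) and KO (vertical axis) at 0 h, each as FPKM + 1 on a log axis, 1 library per genotype. The solid line marks equal values and the dotted lines 2-fold; the 143 red points lie above and the 40 blue points below them, and S100a8, Ngp and Ltf stand out among the abundant genes on the KO side.

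Batf2, on chromosome 19 at 6164458 to 6172475 (GRCm38), was examined first because it checks the labels. At 0 h it had 0.259 in KO (interval 0.0987 to 0.419) against 2.63 FPKM in WT (1.86 to 3.39). The KO library was lower, the intervals were apart, and the difference was -1.53. At 3 h of LPS the WT library held 234 FPKM and the KO library 10.1, so that the gene was low at 0 h against its own later level in WT. None of the 107 other genes tested within 2 Mb of Batf2 was called, and their differences ran from -0.57 to 0.79. With 1.69% of all tested genes called, so small a group could hold no call wherever it lay. The other BATF family members were close: Batf had 21.8 in KO against 22.4 FPKM in WT and Batf3 28.2 in KO against 39.4 FPKM in WT, a difference of -0.47. Of the 14 tested BATF, JUN and FOS factors, Batf2 was the 1 that was called. Jun, Junb, Fos and Atf3 differed by 0.17, -0.03, 0.34 and -0.03. None of 8 interferon regulatory factors was called, with a range from -0.35 for Irf4 to 0.06 for Irf3.

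Macrophage markers were examined next, as a check of the labelled cell type. Csf1r, the M-CSF receptor, had 187 in KO against 184 FPKM in WT, Cd68 had 453 in KO against 414 FPKM in WT and Lyz2, lysozyme, had 23092 in KO against 21464 FPKM in WT. These values are close between genotypes. Of 14 tested macrophage markers 7 were higher and 7 lower, with a median of -0.02, and 1 was called: Apoe, the lipid carrier apolipoprotein E, at 663 in KO (interval 651 to 675) against 312 FPKM in WT (303 to 320.2). The receptors that the culture and its treatment act through were also close, with -0.23 for Csf2ra and -0.03 for Csf2rb (GM-CSF), -0.05 for Tlr4 and -0.12 for Cd14 (LPS) and 0.05 for Ifngr2, while Ifngr1, the ligand-binding chain of the IFN-γ receptor, had 34.3 in KO against 51.3 FPKM in WT (-0.57). B cell markers were all below 1 FPKM, with sums of 1.45 in WT and 2.15 in KO. Cd3e, Cd8a and Ncr1 for T and NK cells were at 0.0818, 0.00385 and 0 FPKM in KO, while the 2 tested markers of that list, Cd4 and Nkg7, had 3.68 in KO against 4.5 FPKM in WT and 1.32 in KO against 0.629 FPKM in WT. Among erythroid markers Hbb-bs and Slc4a1 were listed at 0 in both libraries, and the 2 tested, Car2, a carbonic anhydrase, and Tfrc, the transferrin receptor, had 18.2 in KO against 30.8 FPKM in WT and 16.7 in KO against 11.1 FPKM in WT. Transcripts of the Y chromosome were present in both libraries (Ddx3y 14.3 in KO against 14.2 FPKM in WT) and Xist was below 1 FPKM in both.

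Genes of neutrophils and their precursors were the broadest group on the KO side. Of 21 tested markers 20 were higher and 10 were called, with a median difference of 0.98, where 1.32% of all genes were called higher and the median was -0.0003. Of the called markers Retnlg, below 1 FPKM in WT, was tested only through KO and could only come out higher. The summed level of the markers was 4122 FPKM for WT and 9964 for KO. Whether more cells of this type or more RNA per cell lies behind such sums cannot be told apart in bulk RNA.

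Neutrophils fill their granules in order: primary granules with antimicrobial proteases come first, and secondary granules with iron-binding and matrix-degrading proteins follow. The markers were set out by this order in lists written after their values were seen. The primary granule list held 4 granule genes and the precursor marker Ms4a3. All 5 were higher, by 0.94 to 1.08, and only Ms4a3 passed the rule. Mpo, the peroxidase that makes hypochlorous acid, had 27 in KO (interval 25.4 to 28.7) against 13.3 FPKM in WT (12 to 14.6). Elane, neutrophil elastase, had 33.3 in KO against 16.5 FPKM in WT, and the related proteases Prtn3 and Ctsg had 38.4 in KO against 19 FPKM in WT and 10.9 in KO against 5.23 FPKM in WT. These 4 lie at 2.03-, 2.02-, 2.02- and 2.09-fold by FPKM and stay under the rule because of the 1 added to each value. Ms4a3, which marks granulocyte and monocyte precursors, was called at 23.1 in KO against 10.4 FPKM in WT.

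All 7 secondary granule genes were higher and 5 were called, with a median of 1.57, where 1.32% of all genes were called higher. Ltf, the iron-binding lactoferrin, had 256 in KO (interval 251 to 261) against 83.2 FPKM in WT (80.1 to 86.3). Lcn2, lipocalin-2, which captures bacterial iron carriers, had 418 in KO (interval 406 to 429.7) against 135 FPKM in WT (128 to 142). Ngp, neutrophilic granule protein, had 1129 in KO (interval 1112 to 1147) against 391.9 FPKM in WT (382 to 402). The KO values of these 3 genes were 3.08, 3.09 and 2.88 times the WT values, and their intervals were far apart. Cd177, a surface protein of mature neutrophils, and Olfm4, olfactomedin 4, were called at 48.8 in KO against 15.2 FPKM in WT and 11.6 in KO against 3.23 FPKM in WT. Camp, which encodes the antimicrobial peptide cathelicidin, and Mmp8, neutrophil collagenase, were higher by 0.80 and 0.45 and were not called.

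The most abundant transcripts of the group were those of calprotectin. S100a8 had 4545 in KO (interval 4469 to 4621) against 1838 FPKM in WT (1789 to 1888), and its partner S100a9 had 2481 in KO (interval 2439 to 2524) against 1053 FPKM in WT (1024 to 1083). Padi4, the enzyme that citrullinates histones, was called at 16 in KO against 7.01 FPKM in WT, Mmp9, gelatinase B, at 13.7 in KO against 6.06 FPKM in WT and Retnlg, resistin-like gamma, at 1.996 in KO against 0.379 FPKM in WT. Cebpe, the transcription factor that drives secondary granule genes, had 14.1 in KO against 6.78 FPKM in WT, a difference of 0.96 that was not called. The receptors of mature neutrophils were not called: Cxcr2 differed by 0.47 and Csf3r, the G-CSF receptor, by 0.39. Ltb4r1, a leukotriene B4 receptor, was the 1 member lower in KO, at 21.9 in KO against 29.7 FPKM in WT. Cd177 and its neighbour Lypd11 on chromosome 7 were both among the 15 genes with the highest differences (Lypd11 11.6 in KO against 3.06 FPKM in WT). With a pseudocount of 5 in place of 1, Ms4a3, Mmp9, Padi4 and Retnlg were no longer called, and all 5 secondary granule calls stayed.

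Of the secondary granule genes, promoters are shown for Ltf, Ngp and Mmp8, which hold the motif described below within the window. Mmp8 was not called. Cd177, Olfm4 and Camp, which lack the motif in the 250 bases before the start, are not shown. The windows are the 140 bases before the transcription start from RefSeq on GRCm38.p6, written 5′ to 3′ on the strand of the gene. Capitals mark matches to TTGCNNAA on either strand, where N is any base, which is the core of sites bound by C/EBP factors. The regions are chr9:111019152-111019291 on the plus strand (Ltf), chr9:110419668-110419807 on the plus strand (Ngp) and chr9:7558289-7558428 on the plus strand (Mmp8).
Ltf: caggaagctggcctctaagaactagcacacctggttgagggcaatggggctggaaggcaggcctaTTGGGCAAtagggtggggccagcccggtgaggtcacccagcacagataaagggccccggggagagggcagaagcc
Ngp: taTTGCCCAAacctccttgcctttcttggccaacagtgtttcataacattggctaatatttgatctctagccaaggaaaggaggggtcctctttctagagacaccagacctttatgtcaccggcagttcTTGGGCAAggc
Mmp8: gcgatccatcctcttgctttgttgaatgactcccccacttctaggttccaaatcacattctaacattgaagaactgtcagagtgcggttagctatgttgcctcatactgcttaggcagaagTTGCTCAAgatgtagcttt
In the 250 bases before the start, 4 of the 7 secondary granule genes held this motif (Lcn2, whose match lies farther up than the window shown, is the other). The share was 6 of 18 for the whole neutrophil list, 9.56% over all 32851 promoters in the table and 9.32% over the tested genes with a promoter entry. It was 13.3% for the genes called higher (15 of 113) and 25.9% for those called lower (7 of 27), so the share was not particular to the genes called higher. A match is a description of the letters and not a bound site.

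The stefins were the family in which nearly every member was called. These small cytosolic inhibitors of cysteine cathepsins lie side by side on chromosome 16, and their position block was drawn after values were seen. All 9 tested genes of the block were higher, 8 were called, where 1.32% of all genes were called higher, and the median difference was 1.43. Stfa2 had 151 in KO (interval 139 to 164) against 44.3 FPKM in WT (37.1 to 51.4), Stfa2l1 134 in KO against 43.4 FPKM in WT and Stfa1 103 in KO against 36.8 FPKM in WT. Cstdc5 was the most abundant, with 244 in KO (interval 229 to 259) against 90.03 FPKM in WT (80.2 to 99.9), followed in KO by Cstdc4 (159.5 in KO against 61.5 FPKM in WT). Stfa3, Cstdc6 and Csta2 were called at 52.2 in KO against 18.8 FPKM in WT, 27.2 in KO against 8.26 FPKM in WT and 20.1 in KO against 9.28 FPKM in WT. Csta3 was higher by 1.42 (7.11 in KO against 2.03 FPKM in WT) but was not called, since its intervals as deposited overlap. Cstb, the widely expressed stefin B, which lies outside the block, had 867 in KO against 769 FPKM in WT (0.17). The call of Csta2 ended with a pseudocount of 5.

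Reads of these copies may be assigned to a neighbour, so that the block is better read as a sum: 314 FPKM for WT and 898 in KO. Their promoters show how alike the copies are and are printed for that reason, from the same RefSeq table. Capitals mark the longest stretch that all 5 windows share, which is 12 bases long. The regions are chr16:36277008-36277147 on the plus strand (Stfa1), chr16:36408364-36408503 on the minus strand (Stfa2), chr16:36156671-36156810 on the plus strand (Stfa2l1), chr16:36455393-36455532 on the minus strand (Stfa3) and chr16:36367571-36367710 on the minus strand (Cstdc5).
Stfa1: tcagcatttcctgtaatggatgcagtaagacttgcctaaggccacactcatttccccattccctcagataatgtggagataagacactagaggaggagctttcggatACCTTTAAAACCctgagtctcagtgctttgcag
Stfa2: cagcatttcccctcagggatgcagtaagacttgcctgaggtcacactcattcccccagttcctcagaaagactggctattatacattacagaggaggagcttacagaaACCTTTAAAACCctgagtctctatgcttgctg
Stfa2l1: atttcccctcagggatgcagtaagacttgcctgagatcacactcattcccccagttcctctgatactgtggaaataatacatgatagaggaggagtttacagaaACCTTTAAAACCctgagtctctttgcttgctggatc
Stfa3: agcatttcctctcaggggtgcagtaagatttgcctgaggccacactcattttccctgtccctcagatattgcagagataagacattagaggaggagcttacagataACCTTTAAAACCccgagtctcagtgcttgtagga
Cstdc5: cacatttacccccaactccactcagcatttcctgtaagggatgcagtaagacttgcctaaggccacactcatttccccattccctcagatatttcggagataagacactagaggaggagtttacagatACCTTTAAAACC
Over the 250 bases before the start, Stfa2 and Stfa2l1 were 89.4% identical in a global alignment, Stfa1 and Stfa3 83.5% and Stfa1 and Cstdc5 81.2%. Csta2 shared 47.2% with Stfa1. The difference of Csta2 (1.03) was the smallest of the 9.

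**Figure D2:**
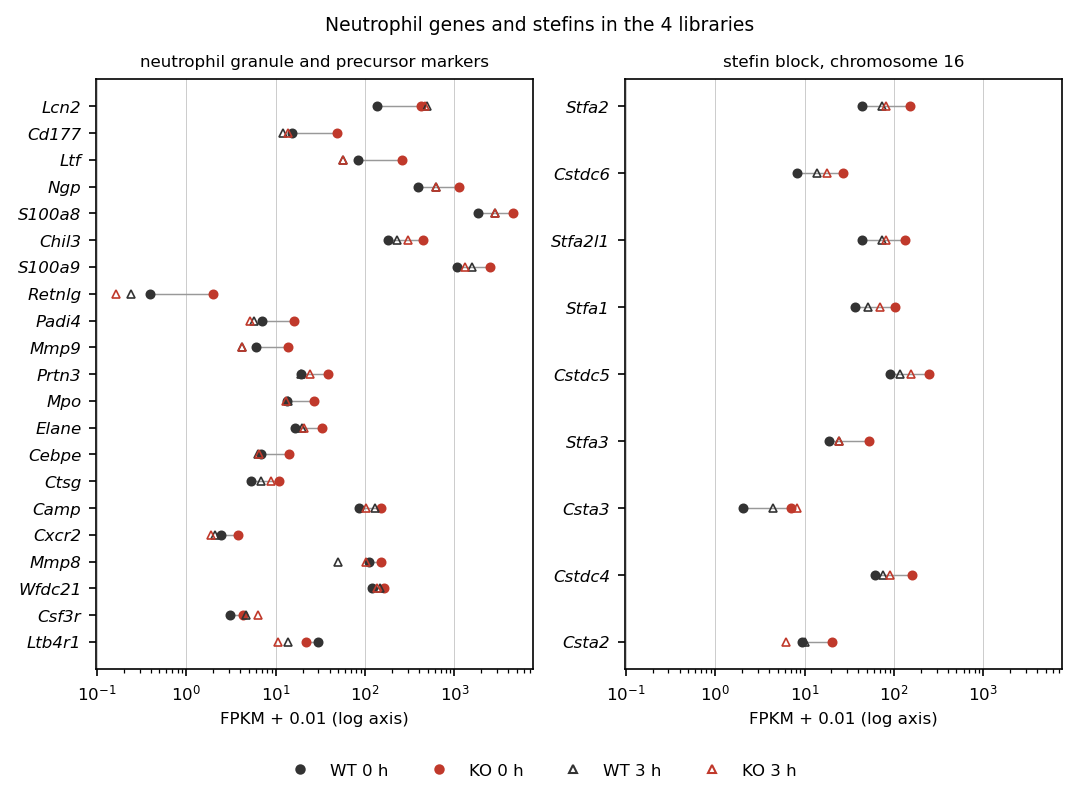
FPKM + 0.01 on a log axis of the tested neutrophil markers (left) and of the stefin block (right), in order of the difference at 0 h, with filled circles for 0 h, open triangles for 3 h, black for WT and red for KO, 1 library each. At 0 h the KO circle lies to the right in 20 of 21 rows on the left and in 9 of 9 on the right, and the 3 h triangles lie close together in most rows.

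Markers of stromal cells formed the next group on the KO side, at low to middle levels. Of 17 tested stromal markers 16 were higher and 6 were called, where 1.32% of all genes were called higher. Their median was 0.78, and their summed levels were 287 FPKM for WT and 443 in KO. The 6 calls included Tagln and Acta2, which are also in the contractile list below. Sparc, a collagen-binding matrix protein, had 33.1 in KO (interval 30.5 to 35.8) against 11.4 FPKM in WT (10.4 to 12.3). Bgn, the proteoglycan biglycan, had 51.3 in KO (interval 48.7 to 53.9) against 17 FPKM in WT (15.6 to 18.4). Col3a1, a fibrillar collagen chain, was called at 2.3 in KO against 0.375 FPKM in WT and Cxcl12, the chemokine by which stroma holds progenitors, at 8.03 in KO against 2.9 FPKM in WT. Among the members that were not called, Col1a1 and Col1a2, the chains of type I collagen, had 16 in KO against 10.4 FPKM in WT and 20.1 in KO against 10.05 FPKM in WT. Dcn and Pdgfrb, which mark fibroblasts and pericytes, had 2.24 in KO against 0.795 FPKM in WT and 1.38 in KO against 0.441 FPKM in WT. Members below 1 FPKM in WT, such as Col3a1, Dcn and Pdgfrb, were tested only through KO and could only come out higher. The stroma-defining markers Lum and Pdgfra stayed below 1 FPKM in both libraries. Fn1, fibronectin, which macrophages also make, was the 1 member that was not higher (161 in KO against 166 FPKM in WT).

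Contractile genes, collagen-processing enzymes and basement membrane genes were grouped after their values were seen. Of 15 contractile genes 14 were higher and 5 were called, with a median of 0.66, where 1.32% of all genes were called higher. Tagln and Acta2 are also counted among the called stromal markers, so these lists are not separate groups of genes. Tagln, the actin-binding protein transgelin, had 45.3 in KO (interval 42.7 to 47.9) against 14.3 FPKM in WT (12.9 to 15.6), and Myl9, a myosin regulatory light chain, had 15.6 in KO (interval 13.7 to 17.4) against 4.27 FPKM in WT (3.21 to 5.33). Acta2, smooth muscle actin, was called at 68 in KO against 31.9 FPKM in WT, Tpm2, a tropomyosin, at 21.5 in KO against 7.98 FPKM in WT and Cald1, caldesmon, at 19 in KO against 6.71 FPKM in WT. The members that most cells share were close: Myh9, Flna, Vcl and Tagln2 differed by 0.08, 0.08, 0.11 and -0.02.

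All 11 tested collagen-processing genes were higher and 4 were called, where 1.32% of all genes were called higher. Lox, lysyl oxidase, which starts the cross-linking of collagen, had 15.6 in KO (interval 14.3 to 16.8) against 4.77 FPKM in WT (4.12 to 5.41). Serpinh1, the collagen chaperone HSP47, had 21.1 in KO (interval 19.7 to 22.6) against 7.62 FPKM in WT (6.46 to 8.78). Fkbp10 was called just inside the rule (1.01), and Loxl3 had 7.68 FPKM in KO but was listed at 0 in WT, at 0 h as at 3 h. Plod3, Plod1 and P4ha1, hydroxylases of collagen that many cells express, differed by 0.03, 0.14 and 0.08. All 6 basement membrane genes were higher and 3 were called: the type IV collagen chains Col4a1 and Col4a2, at 5.09 in KO against 1.46 FPKM in WT and 4.16 in KO against 1.31 FPKM in WT, and the laminin chain Lamb1, at 2.17 in KO against 0.563 FPKM in WT. Lamb1 and Loxl3, below 1 FPKM in WT, were tested only through KO and could only come out higher. With a pseudocount of 5, Tagln, Bgn, Sparc, Myl9, Cald1, Tpm2, Lox, Serpinh1 and Loxl3 stayed called and the other calls of these 4 lists ended. The medians also moved: the stromal one from 0.78 to 0.44, the contractile one from 0.66 to 0.33, the collagen-processing one from 0.98 to 0.42 and the basement membrane one from 0.97 to 0.40, and with a pseudocount of 0.1 the contractile median was 1.07 and the basement membrane median 1.48. Sparc has 2 entries, and with its highest single entry it differed by 0.76 and was not called. Over 13 contractile promoters 3 held a CArG box, the site of serum response factor, against 1.47% of all promoters and 1.43% of those of tested genes. The share was 1.77% for the genes called higher (2 of 113) and 0 of 10 for stromal markers, so the box was not particular to the genes called higher.

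**Figure D3:**
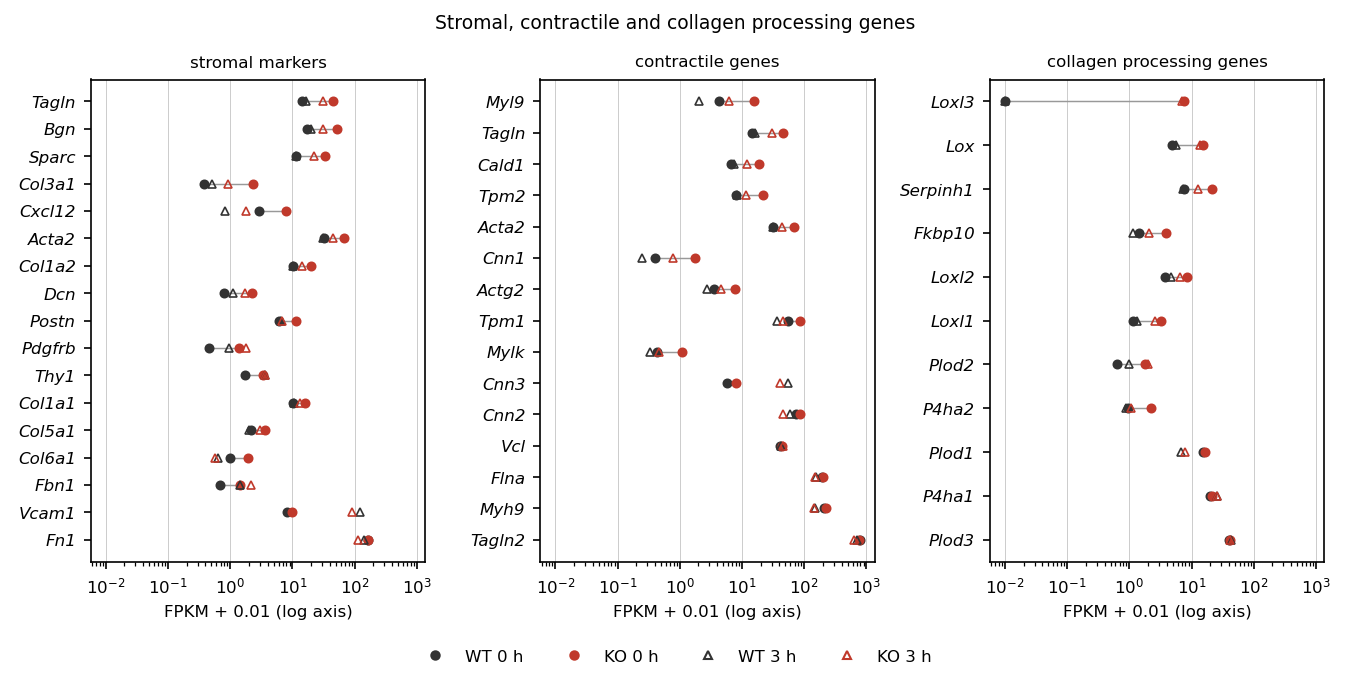
FPKM + 0.01 on a log axis of the tested stromal markers, contractile genes and collagen-processing genes, in order of the difference at 0 h, with filled circles for 0 h, open triangles for 3 h, black for WT and red for KO, 1 library each. KO circles lie to the right at the top of each panel and meet the WT circles at the bottom, where Fn1, Tagln2 and Plod3 are; the point of Loxl3 at the left edge is a listed 0.

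Of the other cell types, megakaryocyte markers were higher in KO in 4 of 4 cases. Pf4, platelet factor 4, which macrophages also express, was called at 259.7 in KO (interval 246 to 273) against 121 FPKM in WT (112 to 131), and Ppbp had 20.4 in KO against 10.4 FPKM in WT. Itga2b, which defines the lineage, had 1.52 in KO against 1.17 FPKM in WT. Among 4 tested endothelial markers Emcn was called at 3.39 in KO against 0.377 FPKM in WT, whereas Cdh5, the defining cadherin, had 1.44 in KO against 1.52 FPKM in WT. The mast cell, basophil and eosinophil markers split: Hdc, which makes histamine, was called higher at 3.86 in KO against 1.26 FPKM in WT, Il1rl1 was called lower, and of the defining genes Kit had 1.08 in KO against 0.756 FPKM in WT, Cpa3 1.1 in KO against 0.950 FPKM in WT and Fcer1a, the IgE receptor chain, 0 in KO against 0.0466 FPKM in WT. Progenitor markers ran from -1.56 for Spink2, called lower at 2.32 in KO against 8.81 FPKM in WT, to 0.62 for Erg. Emcn, Kit and Cpa3, below 1 FPKM in WT, were tested only through KO and could only come out higher. Calls for Emcn, Hdc and Spink2 ended with a pseudocount of 5. The part of these cell types in the results was not tested.

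On the WT side stood antigen presentation by MHC class II. These molecules carry peptides of swallowed material to CD4 T cells, and their genes share promoter boxes read by a complex that the coactivator Ciita completes. All 12 tested genes were lower in KO, from -0.91 to -0.03 with a median of -0.63, and 0 were called, where 0.369% of all genes were called lower. Ciita had 9.52 in KO (interval 8.38 to 10.7) against 18.8 FPKM in WT (17 to 20.6). The alpha and beta chains H2-Aa, H2-Ab1 and H2-Eb1 had 639.8 in KO against 1135 FPKM in WT, 901 in KO against 1635 FPKM in WT and 394 in KO against 694 FPKM in WT, and Cd74, the invariant chain that guards the groove, had 3810.0 in KO against 6209 FPKM in WT. The intervals of these 5 genes were apart, while their differences lay between -0.70 and -0.91. The peptide editors followed, with 168 in KO against 232 FPKM in WT for H2-DMa, 209 in KO against 329.7 FPKM in WT for H2-DMb1 and 71.6 in KO against 109 FPKM in WT for H2-DMb2. Ctss, the protease that trims the invariant chain, and Ifi30, the lysosomal thiol reductase, differed by -0.16 and -0.20. Summed over the list the level was 14900.1 FPKM for WT and 10245 in KO.

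Class II promoters are printed because the genes lay together in direction and carry known shared boxes. The windows are the 140 bases before the start (RefSeq, GRCm38.p6). Capitals mark CCAAT or its complement ATTGG, the core of the Y box, and CTNGNAAC on either strand, a pattern inside the X box region that was read from these sequences after they were seen. The regions are chr17:34287824-34287963 on the minus strand (H2-Aa), chr17:34305727-34305866 on the plus strand (H2-Eb1), chr17:34153051-34153190 on the plus strand (H2-DMb1) and chr17:34238765-34238904 on the plus strand (H2-Ob).
H2-Aa: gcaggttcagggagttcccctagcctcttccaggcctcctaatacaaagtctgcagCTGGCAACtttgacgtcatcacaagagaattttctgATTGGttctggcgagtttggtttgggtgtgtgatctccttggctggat
H2-Eb1: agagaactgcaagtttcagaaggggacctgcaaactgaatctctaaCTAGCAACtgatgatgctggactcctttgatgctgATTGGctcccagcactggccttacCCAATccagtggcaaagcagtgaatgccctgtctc
H2-DMb1: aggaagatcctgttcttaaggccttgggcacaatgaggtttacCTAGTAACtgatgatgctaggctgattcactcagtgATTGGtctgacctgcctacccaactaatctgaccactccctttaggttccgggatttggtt
H2-Ob: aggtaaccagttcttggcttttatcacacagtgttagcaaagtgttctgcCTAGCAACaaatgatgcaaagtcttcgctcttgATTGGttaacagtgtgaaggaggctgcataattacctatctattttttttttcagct
The first pattern begins 84 bases before the start in H2-Aa, 94 in H2-Eb1, 97 in H2-DMb1 and 90 in H2-Ob, and ATTGG follows at 48, 59, 61 and 57 bases. Of the 9 class II genes with a promoter entry, these 4 held CTNGNAAC, against 10.9% of all promoters and 12.8% of those of tested genes. Because the pattern was read from these sequences, a high share among them was fixed in advance. CCAAT on either strand was held by 7 of the 9, against 33.8% and 40.8%. H2-Ob, at 0.463 in KO against 1.1 FPKM in WT, differed by -0.52, less than the others shown.

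MHC class I genes were closer: 11 of 15 were lower, 0 were called and the median was -0.09. B2m had 2726 in KO against 2971 FPKM in WT, and Nlrc5, the class I coactivator, had 3.23 in KO against 4.59 FPKM in WT (-0.40). Among 11 costimulatory molecules 7 were lower and none was called. Pdcd1lg2, the inhibitory ligand PD-L2, had 14.5 in KO against 28.7 FPKM in WT (-0.93) and Tnfsf4, OX40 ligand, 3.51 in KO against 6.65 FPKM in WT (-0.76), while Cd274, PD-L1, and Cd80 had 90.1 in KO against 78.5 FPKM in WT and 14.8 in KO against 13.8 FPKM in WT.

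Dendritic cell markers were mostly lower: 10 of 13, with a median of -0.35, 1 called lower and 1 higher. Cd209a, the DC-SIGN lectin of monocyte-derived dendritic cells, was called at 2.13 in KO (interval 1.55 to 2.7) against 6.46 FPKM in WT (5.32 to 7.6). Zbtb46, a transcription factor that marks the lineage, had 4.73 in KO against 7.7 FPKM in WT (-0.60), and Clec9a, a receptor for dead cells, had 1.59 in KO against 3.71 FPKM in WT (-0.86). Itgax, which encodes CD11c, was level at 556 in KO against 564 FPKM in WT. Fscn1, the actin-bundling protein of mature dendritic cells, was the 1 called higher, at 11.2 in KO (interval 10.1 to 12.3) against 4.23 FPKM in WT (3.52 to 4.93), and Ccr7, the other maturation marker, was low in both (1.88 in KO against 1.8 FPKM in WT). Flt3, Xcr1 and Siglech, which define other dendritic subsets, were below 1 FPKM in both libraries. Calls for Cd209a and Fscn1 ended with a pseudocount of 5.

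IFN-γ target genes were low at 0 h although the labels give 4 h of IFN-γ to every culture. Their 16 genes summed to 193 FPKM for WT and 150.2 in KO at 0 h, and to 7449 and 6626 at 3 h. Of the 12 tested, 11 were lower in KO with a median of -0.21 and 0 were called. Gbp2, a guanylate-binding protein, had 31.6 in KO against 49.8 FPKM in WT (-0.64) and Gbp3 14.9 in KO against 21.3 FPKM in WT (-0.49), whereas Irf1 and Irf8 had 12.6 in KO against 12.4 FPKM in WT and 19.1 in KO against 19.4 FPKM in WT. Gvin1, a giant interferon-inducible GTPase that is no member of the list, was called lower at 5.81 in KO (interval 5.19 to 6.42) against 19.1 FPKM in WT (17.9 to 20.3). It has near-identical copies beside it, so that its read assignment is uncertain. The 16 tested type I interferon targets had a median of -0.04 (0.03 with the highest single entry of each gene), 7 higher and 9 lower, with none called.

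**Figure D4:**
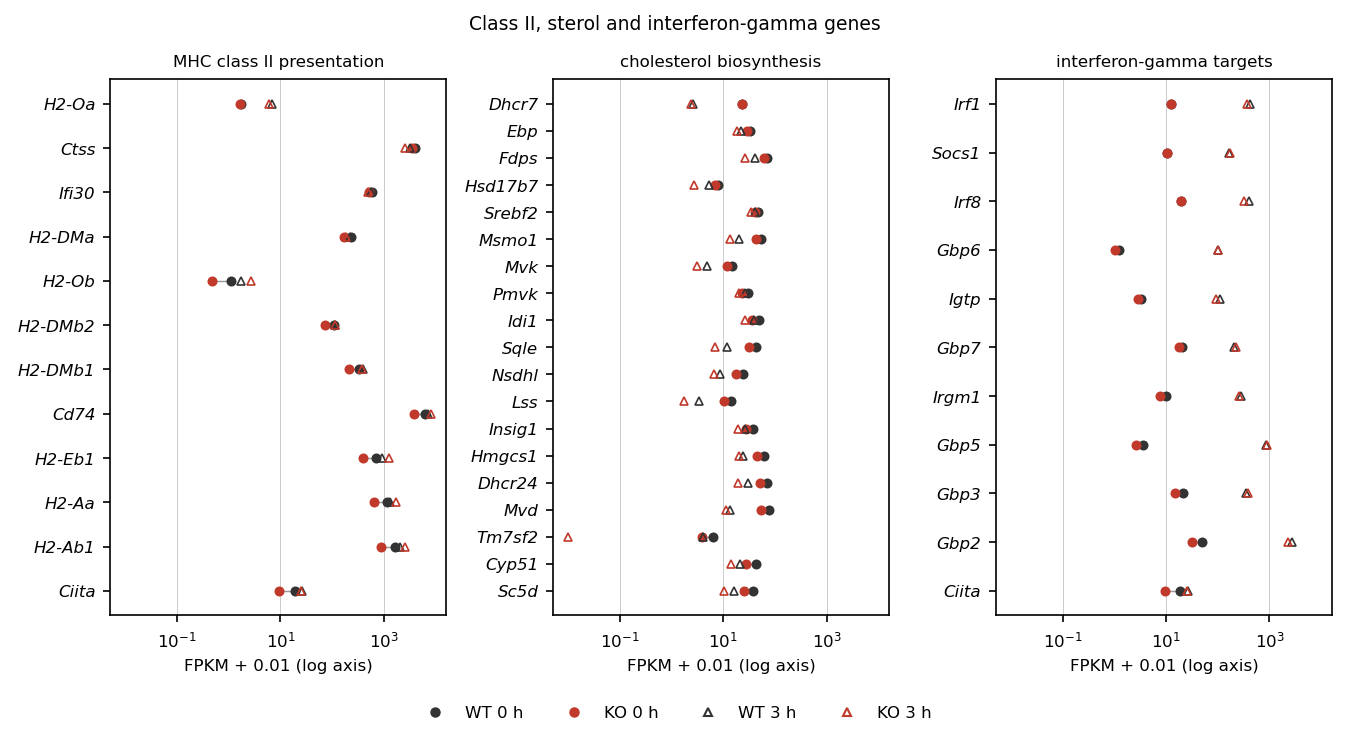
FPKM + 0.01 on a log axis of tested class II, cholesterol and IFN-γ target genes, some list members not drawn, in order of the difference at 0 h, with filled circles for 0 h, open triangles for 3 h, black for WT and red for KO, 1 library each. KO circles lie to the left of the WT circles in every class II and cholesterol row, and the IFN-γ targets are lower at 0 h than at 3 h in both genotypes; the triangle of Tm7sf2 at the left edge is a listed 0.

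Chemokines of the CXC family were mostly higher in KO. Of 8 tested 7 were higher and 4 were called, where 1.32% of all genes were called higher. Cxcl14, a chemokine of epithelia and stroma, had 21.1 in KO (interval 19.3 to 22.8) against 2.41 FPKM in WT (1.82 to 2.998), and Cxcl3, which draws neutrophils, had 41.4 in KO (interval 37.9 to 44.8) against 12.3 FPKM in WT (10.3 to 14.3). Cxcl12 and Pf4 are described above. Cxcl2, the close relative of Cxcl3, had 9.84 in KO against 6.82 FPKM in WT (0.47) and Cxcl10 1.2 in KO against 1.11 FPKM in WT. Among 10 CC chemokines Ccl12, a monocyte attractant, was called higher at 5.67 in KO against 1.62 FPKM in WT. Ccl22, which binds Ccr4 on T cells, was called lower at 149 in KO (interval 144 to 154) against 302 FPKM in WT (295 to 309.5), and Ccl17, its neighbour with the same receptor, had 2553 in KO against 4348 FPKM in WT (-0.77). Ccl2, Ccl3, Ccl4 and Ccl9 were higher by 0.31, 0.08, 0.27 and 0.33. No chemokine receptor of 11 tested was called, and Ccr2 had 101 in KO against 97.6 FPKM in WT. Neither Ccl12 nor Ccl22 was called with a pseudocount of 5.

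In the IL-1 family 7 of 12 tested genes were higher and 5 lower in KO, with a median of 0.14. The 3 calls, Il1rl1, Il1r1 and Il33, were lower in KO, where 0.369% of all genes were called lower. Il1rl1, also called ST2, the receptor for IL-33, had 6.28 in KO (interval 5.8 to 6.77) against 19.996 FPKM in WT (19 to 21). Il1r1, the signalling receptor for IL-1, had 1.49 in KO (interval 1.13 to 1.84) against 6.34 FPKM in WT (5.51 to 7.17), and lies in the same region of chromosome 1 as Il1rl1. Il33 had 1.9 in KO (interval 1.56 to 2.25) against 6.16 FPKM in WT (5.48 to 6.84). Il1b and Il1a had 10.5 in KO against 9.27 FPKM in WT and 25.8 in KO against 18.4 FPKM in WT, Il1rn, the receptor antagonist, had 312 in KO against 231 FPKM in WT, and Il1rap, the shared coreceptor, had 7.4 in KO against 6.79 FPKM in WT. With a pseudocount of 5 only Il1rl1 of the 3 stayed called.

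Of 13 tested markers of alternative activation 4 were higher and 9 lower, with a median of -0.15. Chil3 and Retnla were called higher, and Ccl22 and Cd209a, described above, were called lower. Over all genes 1.32% were called higher and 0.369% lower. The chitinase-like proteins are a separate list that shares Chil3. The chitinase-like proteins were called in 3 of 3 cases: Chil3 (Ym1) at 439 in KO (interval 429 to 448) against 179.7 FPKM in WT (173 to 186), Chil4 at 64.4 in KO against 24.9 FPKM in WT and Chil1 at 28.5 in KO (interval 26.3 to 30.6) against 7.81 FPKM in WT (6.69 to 8.93). Chil3 and Chil4 are near-identical neighbours whose reads may be shared, and Chil3 is also counted among the neutrophil precursor markers. Retnla had 1.19 FPKM in KO and was listed at 0 in WT, and Arg1, arginase, had 6.25 in KO against 3.58 FPKM in WT (0.66). Mgl2 and Clec10a, galactose-binding lectins, were lower by -0.81 and -0.73 (348 in KO against 609.5 FPKM in WT and 45.8 in KO against 76.7 FPKM in WT), and Mrc1, the mannose receptor, was level at 125 in KO against 129.7 FPKM in WT. Retnla was tested only through KO and could only come out higher, and its call ended with a pseudocount of 5.

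Other surface and secreted proteins of myeloid cells were called singly. Marco, a scavenger receptor, was higher at 69.9 in KO against 32.5 FPKM in WT, and Axl, a receptor for apoptotic cells, had 125 in KO against 197 FPKM in WT (-0.65). Ifitm6 had 27.6 in KO (interval 23.6 to 31.7) against 8.07 FPKM in WT (5.64 to 10.5), whereas Ifitm1, Ifitm2 and Ifitm3 differed by 0.10, 0.11 and 0.25. Cfb, complement factor B, was lower at 4.16 in KO (interval 3.67 to 4.65) against 11.3 FPKM in WT (10.3 to 12.2), and C3 was level at 112 in KO against 114 FPKM in WT. F13a1, the transglutaminase factor XIII, was lower at 10.1 in KO against 23.7 FPKM in WT, F2rl2, the thrombin receptor PAR3, was lower at 8.72 in KO (interval 7.76 to 9.68) against 23.8 FPKM in WT (22 to 25.6), and Serpinb2, a plasminogen activator inhibitor, was higher at 11.6 in KO against 4.61 FPKM in WT. Id3, an inhibitor of helix-loop-helix factors, was the 1 of 21 myeloid lineage factors that was called (5.2 in KO against 1.53 FPKM in WT), while Spi1, Cebpb and Runx1 differed by 0.01, 0.05 and -0.02. With a pseudocount of 5 the calls of Marco, Cfb, F13a1, Serpinb2 and Id3 ended.

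Of 12 tested cathepsins, proteases of lysosomes and endosomes, Ctse was called. Ctse, the aspartic protease cathepsin E, had 21.4 in KO (interval 19.7 to 23.1) against 1.22 FPKM in WT (0.873 to 1.56), the highest difference among named genes that had a value in both libraries (3.33). The cysteine cathepsins Ctsb, Ctsl and Ctsz had 1266 in KO against 1097 FPKM in WT, 444 in KO against 291 FPKM in WT and 1414 in KO against 1379 FPKM in WT, and Ctsd, the abundant aspartic one, had 5066 in KO against 4469.9 FPKM in WT. Among 19 lysosomal genes none was called. Glb1, beta-galactosidase, had 17.7 in KO against 35.6 FPKM in WT and missed the rule at -0.97.

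Cholesterol synthesis was lower in KO in small steps across the whole pathway, which SREBP-2 controls. All 21 tested genes were lower, by -0.04 to -0.58 with a median of -0.42, and 0 were called. The summed level was 838 FPKM for WT and 648 in KO. Hmgcs1, at the entry of the pathway, had 44.4 in KO against 62 FPKM in WT, Sqle, squalene epoxidase, had 32.1 in KO against 43.2 FPKM in WT, and Cyp51 and Sc5d, late sterol enzymes, had 28 in KO against 42 FPKM in WT and 25.2 in KO against 38.2 FPKM in WT. Srebf2 itself, which encodes SREBP-2, had 40.8 in KO against 47.3 FPKM in WT. All 16 of these genes with a promoter entry held CCAAT on either strand within 250 bases, against 33.8% of all promoters and 40.8% of those of tested genes. The sterol element core TCACNCCAC was held by 1 of the 16, against 1.05% and 1.2%.

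Fatty acid genes went the same way in 11 of 12 cases, with a median of -0.35. Scd1, the stearoyl-CoA desaturase, was called at 8.14 in KO (interval 7.5 to 8.79) against 19.7 FPKM in WT (18.7 to 20.8), and Scd2, Fads2 and Acsl3 had 115 in KO against 182 FPKM in WT, 15 in KO against 26.9 FPKM in WT and 8.84 in KO against 15.9 FPKM in WT. Fasn, fatty acid synthase, differed by -0.37. Genes of cholesterol efflux were level apart from Apoe: Abca1 had 12.7 in KO against 12.3 FPKM in WT, Abcg1 75.2 in KO against 89.4 FPKM in WT and Lpl 1381 in KO against 1401 FPKM in WT. The Scd1 call ended with a pseudocount of 5.

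Genes of the cell cycle were lower by small amounts. All 20 tested DNA replication genes were lower, by -0.07 to -0.40 with a median of -0.22, as were 18 of 20 mitosis genes, with a median of -0.17, and none was called. Pcna had 144 in KO against 167 FPKM in WT, Mcm6 25.5 in KO against 34 FPKM in WT and Top2a 33 in KO against 37.6 FPKM in WT. Each of these is under 1.5-fold.

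Housekeeping pathways were close. Glycolysis genes were higher in 13 of 15 cases with a median of 0.13, respiratory chain genes in 13 of 21 with 0.03, and unfolded protein response genes in 9 of 13 with 0.14, none called. Of 12 heat shock genes Hspb1 was called (3.7 in KO against 0.657 FPKM in WT), though not with a pseudocount of 5. Hspb1, below 1 FPKM in WT, was tested only through KO and could only come out higher. Ribosomal protein genes were higher in 33 of 38 cases with a median of 0.06. Rps2 was the exception, called at 228 in KO (interval 219 to 236) against 94.7 FPKM in WT (88.9 to 100.5), and Snhg9, which lies beside it on chromosome 17, had 5.65 FPKM in WT and was listed at 0 in KO. Alas1, the first enzyme of haem synthesis in cells other than red cells, was called at 499 in KO (interval 492 to 506) against 227 FPKM in WT (222 to 232).

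Among the 15 highest genes with a value in both libraries, those not yet described were Arl9, a small GTPase of the ARF family (11.6 in KO against 0.387 FPKM in WT), Zfp971 (7.54 in KO against 0.319 FPKM in WT) and Dpys, a pyrimidine-breaking enzyme (6.02 in KO against 0.934 FPKM in WT). The WT interval of Arl9 reached 0, and Arl9 was listed at 0 in both libraries at 3 h. Among the 15 lowest, those not yet described were Rmrp (3.01 in KO against 13.7 FPKM in WT) and Rpph1 (1.92 in KO against 7.8 FPKM in WT), the RNA parts of RNase MRP and RNase P, Slc9a3r2, a scaffold protein (2.13 in KO against 9.05 FPKM in WT), Mucl1 (5.66 in KO against 17.5 FPKM in WT) and Eef1a2, an elongation factor isoform (27.2 in KO (interval 25.4 to 29.1) against 65.5 FPKM in WT (62.1 to 68.8)). Rmrp and Rpph1 are short, and their intervals were wide: 3.01 in KO (interval 0.820 to 5.19) against 13.7 FPKM in WT (7.51 to 19.9) for Rmrp. Dpys, Rpph1 and Slc9a3r2 were no longer called with a pseudocount of 5.

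Zfp971 lies in a block of zinc finger genes on chromosome 2 whose bounds were drawn after the values were seen. All 16 tested genes of the block were higher in KO, by 0.16 to 2.69, and 5 were called, where 1.32% of all genes were called higher. The summed level was 10.8 FPKM for WT and 35.2 in KO. The 5 called genes were below 1 FPKM in WT and were tested only through their KO value. Such genes could only come out higher, so the shared direction of the block was partly fixed by the filter. Gm14326 had 3.62 in KO against 0.518 FPKM in WT, Gm14325 2.42 in KO against 0.198 FPKM in WT and Gm14295 2.06 in KO against 0.359 FPKM in WT. Members are near-identical copies, and Gm4631 and Gm4724 had equal values in each library, so the assignment of reads among them is uncertain. With a pseudocount of 5 only Zfp971 stayed called, and the median of the block was 0.21 in place of 0.62.

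At 3 h of LPS the other KO and WT pair gave the same measure in libraries that the 0 h calls did not use. There, 72 of 9819 tested genes (0.733%) were called higher and 70 (0.713%) lower. Of the 113 genes called higher at 0 h that were tested at 3 h, 93 were higher again, where 34.4% of all genes tested at 3 h were, and 19 were called again. Their median difference was 1.27 at 0 h and 0.53 at 3 h. Of 32 genes called lower, 24 were lower again, where 65.6% of all genes tested at 3 h were, and 7 were called again, with medians of -1.41 and -0.48. In 3 cases the calls were opposite, and all 3 (Plpp1, Capzb and Akr1b3) were listed at 0 in 1 of the 4 libraries or more.

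Over all genes tested at 3 h the median difference was -0.07, against which the values of the gene groups at that time can be read. Neutrophil markers had a median of 0.0022 at 3 h, with 10 of 20 higher and summed levels of 6248 FPKM in WT and 6078 in KO. Ltf had 56.5 in KO against 56.7 FPKM in WT, S100a8 2865 in KO against 2833 FPKM in WT and Ngp 613 in KO against 624 FPKM in WT at 3 h. The genotypes were close in these 3 genes, and Mmp8 was the 1 member called there (103 in KO against 50.1 FPKM in WT). Stefins had a median of 0.25, with 8 of 9 higher and none called. Stromal markers were higher in 12 of 15 cases with a median of 0.43, and Sparc and Tagln had 22.5 in KO against 11.3 FPKM in WT and 30.6 in KO against 16.3 FPKM in WT. Class II genes were level, with 6 of 13 higher, a median of -0.03, and 1698 in KO against 1341 FPKM in WT for H2-Aa. Cholesterol genes were lower in 21 of 21 cases with a median of -0.50.

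The 26 genes called the same way at both times included, on the KO side, Ctse (45.7 in KO against 1.56 FPKM in WT at 3 h), Cxcl14 (22.3 in KO against 3.13 FPKM in WT), Chil1 (195 in KO against 47.3 FPKM in WT), Pf4 (282 in KO against 108 FPKM in WT), Alas1 (466 in KO against 229 FPKM in WT), Rps2 (154 in KO against 72.9 FPKM in WT), Lox (13.6 in KO against 5.64 FPKM in WT), Myl9 (6.1 in KO against 2.02 FPKM in WT) and Zfp971 (2.54 in KO against 0.129 FPKM in WT). The difference was greater at 3 h than at 0 h for 6 of the 19 genes on the KO side, among them Ctse (4.19 against 3.33), Chil1 (2.02 against 1.74) and Pf4 (1.37 against 1.09). On the WT side they were Batf2, F2rl2 (0.274 in KO against 6.79 FPKM in WT), Eef1a2 (11.9 in KO against 34.8 FPKM in WT), Scd1 (2.01 in KO against 5.58 FPKM in WT), Hebp2 (0.199 in KO against 1.83 FPKM in WT), and Ogfod3 and Rpain, which were listed at 0 in both KO libraries. Il1rl1 and Il1r1 were low at 3 h in both genotypes (0.673 in KO against 1.02 FPKM in WT and 0.530 in KO against 0.751 FPKM in WT), and Cxcl3 and Ccl22, called at 0 h, had 823 in KO against 496 FPKM in WT and 955 in KO against 881 FPKM in WT after LPS.

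**Figure D5:**
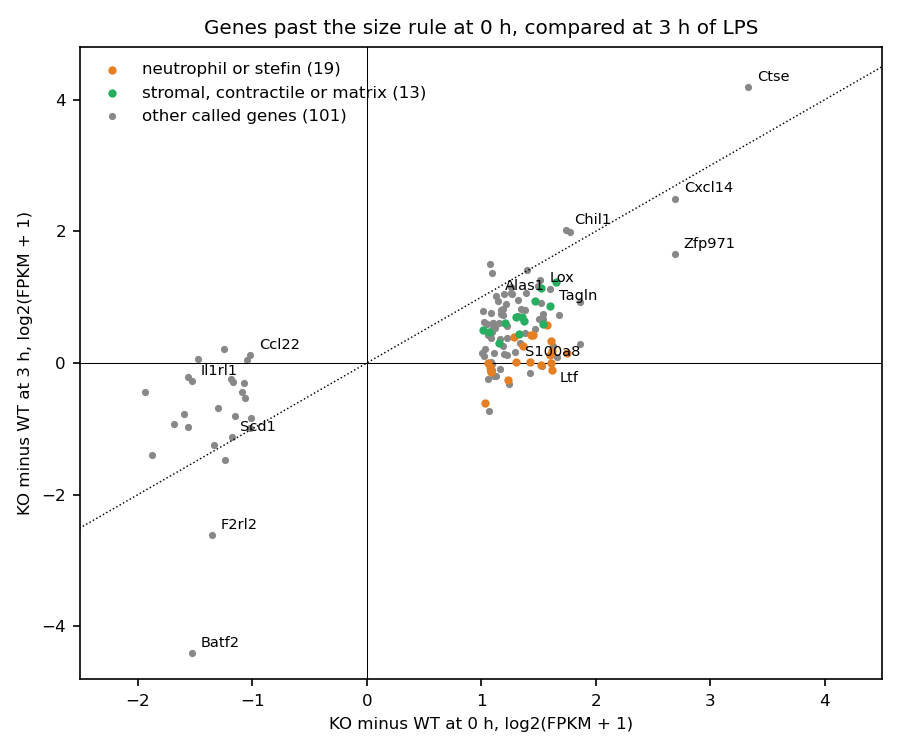
KO minus WT difference on the log2(FPKM + 1) scale at 0 h (horizontal axis) and 3 h (vertical axis) for the 133 genes called at 0 h that were tested at 3 h and had a value above 0 in both libraries at 0 h; each point is 1 gene, and the dotted line marks equal differences. At 3 h the 19 neutrophil and stefin genes lie between -0.61 and 0.58, 12 of them above 0, and the 13 stromal, contractile and matrix genes between 0.31 and 1.24; Ctse, Chil1 and F2rl2 are among the points beyond the dotted line.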

How the data were processed

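RNA was sequenced from 4 mouse cultures, 1 library each (SureSelect strand-specific kit, single reads, per the labels' protocols). The authors deposited FPKM with limits and a status per RefSeq entry. Per the submitters' processing notes, TopHat2, Bowtie, SAMtools, Cufflinks and mm9 were used, with versions not given in the sources used here. Gene loci fit GRCm38, and mm9 loci were not compared. Of the 33841 entries, those named by RefSeq accession and on the chromosome of that gene were checked. Of these, 97.8% fell within the GRCm38 locus of the same gene, and 55.5% began at its exact start after 1 was added, against 3.31% as written. FPKM of a symbol's entries with status OK was summed, also the limits. FPKM lay outside its own limits for 1879 (WT) and 2075 (KO) entries at 0 h, so printed intervals were moved onto the FPKM at the same relative width; calls used them as deposited. Read totals are not given in the files, and depth was compared through interval widths.

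The pseudocount was 1. A call needed a log2 difference of at least 1, an FPKM of at least 1 and intervals that do not overlap. The rule was tested on simulated data. Named genes were Batf2, the 15 highest and 15 lowest called genes with an FPKM of at least 5 and no 0, and, per list, the called and most abundant members. Some genes this rule names are not reported here. The members, 59 lists (11 of cell types) and rules were chosen with earlier results of these data known, and 5 further lists, both position blocks and the pattern CTNGNAAC after values or sequences were seen. Other pseudocounts (0.1 and 5), filters, rescaling, single entries and interval rules were tried. pandas 2.3.3 and numpy 2.4.6 were used in Python 3.11.15, and promoters came from RefSeq (GRCm38.p6).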

Additional observations from a re-analysis of the deposited data

Results flagged for a closer look

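In 3 lists the median difference had opposite signs at 0 h and at 3 h of LPS, each in 1 pair of libraries, and the difference between the times was not tested. The mast cell, basophil and eosinophil list had medians of 0.23 at 0 h (11 tested) and -0.50 at 3 h (10 tested): Prg2, eosinophil major basic protein, had 30.9 in KO against 22.3 FPKM in WT at 0 h and 11.1 in KO against 24.6 FPKM in WT at 3 h, and Epx, eosinophil peroxidase, 5.81 in KO against 3.66 FPKM in WT and then 1.75 in KO against 5.45 FPKM in WT. Ly6 surface antigens had 0.32 (5 tested) and -0.13 (6 tested): Ly6c2, the Ly6C antigen of inflammatory monocytes, had 122 in KO against 61.6 FPKM in WT at 0 h, close to 2-fold, and 283 in KO against 307 FPKM in WT at 3 h. Glycolysis genes had 0.13 and -0.18 over 15 genes at both times, with Aldoa, aldolase, at 687 in KO against 658 FPKM in WT and then 504 in KO against 601 FPKM in WT. With a pseudocount of 5 in place of 1 the 0 h medians of the mast cell and Ly6 lists were 0.08 and 0.11.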

How the results depend on the processing

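No paired analysis was possible because each group holds 1 library. The counts depend on the pseudocount: the 143 higher genes became 269 with a pseudocount of 0.1, 48 with 5 and 87 with an FPKM of at least 5, and the 40 lower genes became 73 with 0.1, 15 with 5 and 61 with fold alone and no interval rule. Batf2 differed by -0.54 with a pseudocount of 5 and was no longer called. Of 80 further genes, the 15 highest, the 15 lowest and the called list members, the same setting ended 36 calls and the highest single entry ended 1 (Sparc). None of the 80 changed direction with either pseudocount, rescaling or single entries, the alternatives run for them. The median of the short noncoding RNAs turned from -0.12 to 0.0082 without the filter on low values, and with the highest single entry per gene 3 medians near 0 changed sign: type I interferon targets (-0.04 to 0.03), leukocyte integrins (-0.0077 to 0.016) and interferon regulatory factors (-0.04 to 0.0003). Of 63 list medians 19 moved by 0.1 or more with a pseudocount of 5 and 9 with 0.1. Rescaling by the median ratio of 0.998 moved no list median by 0.1 or more. The alternatives added after the data were seen, without genes listed at 0 and without small RNAs and unnamed entries, kept both counts within 1.5 times. Without replicates, none of these settings shows the spread between cultures.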

Other observations

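The genes below were picked after their values were seen. Further called genes on the KO side belong to granulocytes by common knowledge: Pglyrp1, a peptidoglycan-binding granule protein, had 86.7 in KO (interval 79.8 to 93.6) against 29.4 FPKM in WT (25.5 to 33.3), Itgb2l, an integrin beta chain, 14.6 in KO against 4.82 FPKM in WT, Ceacam10 16.8 in KO against 6.55 FPKM in WT, Fcnb, ficolin B, 13.1 in KO against 5.76 FPKM in WT, and Lrg1 13.1 in KO against 5.63 FPKM in WT. At 3 h the values were 65.2 in KO against 67.5 FPKM in WT for Pglyrp1, 6.99 in KO against 7.9 FPKM in WT for Itgb2l, 3.44 in KO against 4.52 FPKM in WT for Ceacam10, 7.24 in KO against 5.16 FPKM in WT for Fcnb and 5.57 in KO against 5.64 FPKM in WT for Lrg1, none called. Others encode matrix proteins and factors made by fibroblasts: Ccn2, connective tissue growth factor, had 45.7 in KO (interval 43.3 to 48) against 15.9 FPKM in WT (14.2 to 17.5), Ccn1 17.5 in KO against 5.44 FPKM in WT, Aebp1 14.8 in KO against 5.05 FPKM in WT, Ltbp2 7.15 in KO against 2.65 FPKM in WT, Cdh11, a cadherin of mesenchymal cells, 5.34 in KO against 1.82 FPKM in WT and Grem1, an antagonist of bone morphogenetic proteins, 5.41 in KO against 1.2 FPKM in WT. At 3 h Ccn2 had 30.1 in KO against 20.7 FPKM in WT and Aebp1 9.24 in KO against 4.86 FPKM in WT, again higher in KO but not called.

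On the WT side, Fcrls, an Fc receptor-like scavenger receptor of macrophages, had 34.7 in KO (interval 32.6 to 36.8) against 73.6 FPKM in WT (70.5 to 76.8), and Asgr2, an asialoglycoprotein receptor chain, 16.2 in KO against 35.6 FPKM in WT. Among the genes called higher at both times were Nectin3, a cell adhesion protein (2.77 in KO against 0.0985 FPKM in WT at 0 h, 3.75 in KO against 0.195 FPKM in WT at 3 h), H60b, a ligand of the NKG2D receptor (2.41 in KO against 0.205 FPKM in WT, then 2.17 in KO against 0.406 FPKM in WT), and Tnfaip1 (12.5 in KO against 4.1 FPKM in WT, then 15 in KO against 5.02 FPKM in WT). The WT interval of Nectin3 reached 0 at 0 h, and its 28.1-fold ratio of FPKM rests on that low value.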
